A study of Mus musculus with 6 samples.

Results

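The peaks described here lie at the ends of the oxidative phosphorylation genes. They were all peaks within 1 kb of either end of a protein-coding gene whose symbol starts with Nduf, Uqcr, Atp5, Cox4, Cox5, Cox6, Cox7 or Cox8, or is Sdha, Sdhb, Sdhc, Sdhd or Cyc1, with gene positions from the RefSeq annotation of GRCm38. The rule took 97 genes and used no measured value. Of these genes, 88 had at least 1 such peak, and they had 118 peaks together, of 97124 peaks in all and 16776 gene-end peaks of any protein-coding gene. There were 62 genes with 1 gene-end peak, 22 with 2 and 4 with 3.

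The assay was ATAC-seq, which reads open chromatin as the places where a transposase can insert sequencing adapters, and the cells were primary B-cells from the bone marrow of PEtg mice. The labels do not spell out the name PEtg, and they give neither the age of the animals nor the promoter that drives the transgene or the H2B-GFP histone reporter. The quiescent group held 3 samples of H2B-GFP high cells and the proliferating group held 3 samples of H2B-GFP low cells, all from the same PEtg background, so that no sample without the transgene enters the comparison. H2B-GFP is a fluorescent histone that is diluted as cells divide. Nothing in the labels says that the samples of a group came from separate animals, so the p-values below reflect sample-to-sample spread that may be technical.

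Oxidative phosphorylation takes place in the inner mitochondrial membrane. Complexes I and II pass electrons from NADH and succinate to ubiquinone, complex III passes them on to cytochrome c, and complex IV hands them to oxygen. Protons pumped on the way drive complex V, the ATP synthase. Most of the subunits are encoded in the nucleus by widely expressed genes, and a few subunits of complex IV have tissue-restricted isoforms for muscle, lung or testis. Promoters of these genes are known for binding sites of NRF1 and of the ETS factor GABP.

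The promoters of 6 genes are given here. Cox6b2 held the peak that was called. Ndufa8 and Ndufaf8 stand for complex I and its assembly factors, and Cox6b1, Uqcrh and Atp5b are further examples. Apart from that of Cox6b2, none of these promoter peaks was called. Each sequence is the 250 bases before the RefSeq start, 5′ to 3′ on the strand of the gene, from the GRCm38.p6 table. Capitals mark matches on either strand to the motifs named below. The windows are chr7:4753095-4753344 (minus strand) for Cox6b2, chr7:30626115-30626364 (minus) for Cox6b1, chr2:36049339-36049588 (minus) for Ndufa8, chr11:120098684-120098933 (plus) for Ndufaf8, chr4:116075071-116075320 (minus) for Uqcrh and chr10:128083057-128083306 (plus) for Atp5b.
Cox6b2: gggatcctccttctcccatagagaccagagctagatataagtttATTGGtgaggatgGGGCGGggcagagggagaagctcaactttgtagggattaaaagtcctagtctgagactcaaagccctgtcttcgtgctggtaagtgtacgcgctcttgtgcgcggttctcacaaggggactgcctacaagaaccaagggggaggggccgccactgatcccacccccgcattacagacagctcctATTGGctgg
Cox6b1: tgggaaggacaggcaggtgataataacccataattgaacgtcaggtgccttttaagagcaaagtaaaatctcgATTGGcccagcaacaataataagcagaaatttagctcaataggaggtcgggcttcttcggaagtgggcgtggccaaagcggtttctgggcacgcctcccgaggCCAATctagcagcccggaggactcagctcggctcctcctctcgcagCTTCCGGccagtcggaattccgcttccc
Ndufa8: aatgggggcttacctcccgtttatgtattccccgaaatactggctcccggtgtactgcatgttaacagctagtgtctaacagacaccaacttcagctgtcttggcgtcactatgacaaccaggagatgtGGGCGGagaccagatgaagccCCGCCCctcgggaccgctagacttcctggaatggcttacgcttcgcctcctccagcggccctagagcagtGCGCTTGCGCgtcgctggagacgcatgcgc
Ndufaf8: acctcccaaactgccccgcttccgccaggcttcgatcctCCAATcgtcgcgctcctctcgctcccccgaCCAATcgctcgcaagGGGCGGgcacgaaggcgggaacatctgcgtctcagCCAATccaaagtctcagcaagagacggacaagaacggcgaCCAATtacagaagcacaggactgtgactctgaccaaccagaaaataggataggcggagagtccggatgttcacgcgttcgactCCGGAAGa
Uqcrh: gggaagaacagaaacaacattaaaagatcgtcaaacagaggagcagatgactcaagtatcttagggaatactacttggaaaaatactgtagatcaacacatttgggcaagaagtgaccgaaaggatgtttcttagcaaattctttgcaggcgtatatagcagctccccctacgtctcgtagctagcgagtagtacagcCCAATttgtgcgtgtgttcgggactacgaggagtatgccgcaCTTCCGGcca
Atp5b: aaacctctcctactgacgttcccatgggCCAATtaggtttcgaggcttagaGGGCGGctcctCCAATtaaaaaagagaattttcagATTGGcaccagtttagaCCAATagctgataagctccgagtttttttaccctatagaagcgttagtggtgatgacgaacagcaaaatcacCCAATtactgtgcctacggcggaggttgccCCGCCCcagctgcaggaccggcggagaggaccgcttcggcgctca

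The letters searched were GCGCA and GCGC with 1 base of any kind between them for NRF1, CCGGAAG for ETS factors including GABP, AANATGGCG for YY1, CCAAT for NF-Y and GGGCGG for the SP family, each on both strands. No motif holds the letters of another. The NRF1 letters nearly equal their own reverse complement, so a site that matches on both strands was counted once. Ndufa8 has an NRF1 match that starts at -30, GCGCTTGCGC, and matches of the SP letters at -121 and -100, counted from the RefSeq start. Cox6b1, Uqcrh and Ndufaf8 have ETS matches close to the start, at -28, -10 and -8. The promoter of Atp5b has 5 matches to CCAAT or its reverse complement among the bases shown. Cox6b2, by contrast with Cox6b1, has no ETS match in its window, and its letters in capitals are 2 CCAAT matches in reverse at -206 and -9 and an SP match at -193.

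RefSeq promoter windows of 300 bases (250 before and 50 after the start) were in the table for 78 of the 97 genes, as 83 windows. The NRF1 letters were in 24.1% of these 83 windows, in 11.3% of the 10431 windows of all protein-coding genes that overlap a peak, and in 6.38% of all 21263 protein-coding windows. The YY1 letters were in 13.3%, 5.52% and 3.12% of the same 3 sets, and the ETS letters in 22.9%, 20% and 11.6%. The NF-Y letters were about as frequent in all sets, at 42.2%, 39.2% and 38.2%. The SP letters were in 43.4% of the oxidative phosphorylation windows, against 65.1% of the windows that overlap a peak and 46.2% of all. None of the letters was found in 15.7% of the oxidative phosphorylation windows, against 14.7% of the windows that overlap a peak. The 83 windows include some without a peak. Among the 77 that overlap a peak, none was found in 14.3%. In these 77, the NRF1, ETS, YY1, NF-Y and SP letters were in 26%, 24.7%, 13%, 41.6% and 44.2%. The median window of these genes was 58.3% G and C with 20 CpG dinucleotides, and the median window that overlaps a peak 61% with 21. A match describes the letters of a window and not a bound site.

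**Figure D1:**
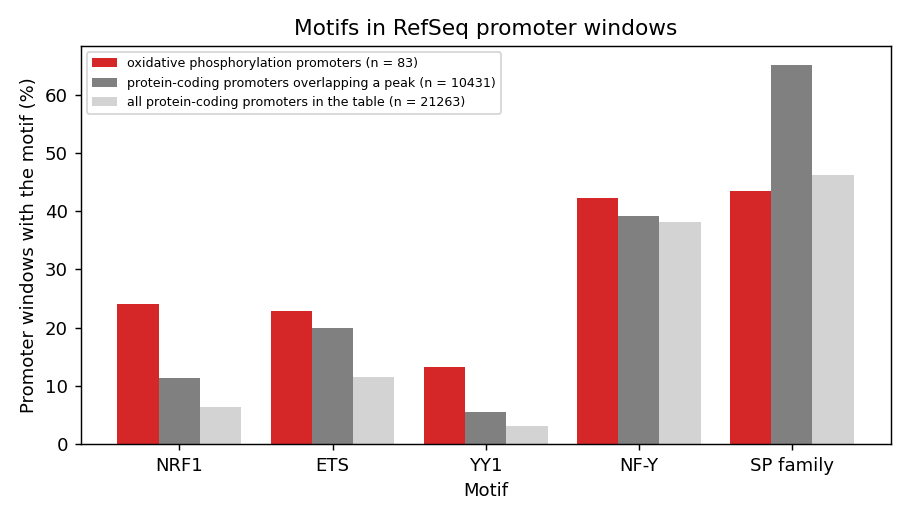
Share of RefSeq promoter windows of 300 bases, in percent on the vertical axis, that hold each motif on either strand, for 83 windows of oxidative phosphorylation genes, 10431 protein-coding windows that overlap a peak and all 21263 protein-coding windows. The NRF1 letters are in 24.1% of the oxidative phosphorylation windows against 11.3% of the windows with a peak, and the SP letters in 43.4% against 65.1%. Among the 77 oxidative phosphorylation windows that overlap a peak, which are not drawn, these shares are 26% and 44.2%.

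Nearly all of these promoters were open. A peak overlapped 77 of the 83 windows (92.8%), against 49.1% of all protein-coding windows in the table. The deposited values hold no peak on chromosome X or Y, so both shares count any window there as without a peak. Among these are the windows of Cox7b, Ndufa1 and Ndufb11. Of the 118 peaks, 84 (71.2%) overlapped the gene end itself, and their widths ran from 200 to 2783 bp with a median of 1227 bp, against a median of 909 bp for other gene-end peaks. The signal, averaged over the 6 samples, ran from 8.77 to 1886 with a median of 166. Divided by peak width, the strongest peak of each gene ran from 49.6 to 1249 signal per kb with a median of 166. The highest per kb were Atp5b at 1249 and Atp5g1 at 1200.5, which encode the catalytic beta subunit and the membrane-ring subunit c of ATP synthase, followed by Ndufs8 at 873, Uqcrh at 647 and Uqcr10 at 535. The lowest of these per kb was the strongest peak of Cox4i1, the ubiquitous isoform of complex IV subunit 4, at 49.6. This peak is 1366 bp wide, with a signal of 67.7. The other gene-end peak of Cox4i1, 431 bp wide with a signal of 61.9, had 143.7 per kb. Both lie within 1 kb of Emc8 and Gm27021, so the value does not rank the gene as least accessible.

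The 118 peaks were shared out over the complexes as 51 for complex I (37 of 41 genes), 12 for its Ndufaf assembly factors (8 of 8), 4 for complex II (4 of 4), 10 for complex III (9 of 9), 16 for complex IV (13 of 18) and 25 for complex V (17 of 17). Complexes were assigned by symbol, which puts Ndufa4 with complex I although its protein is known as a complex IV subunit. A peak within 1 kb of another protein-coding gene cannot be given to 1 gene alone, and this holds for 58 of the 118. Examples are the peaks at Ndufa8 (with Morn5), Ndufaf5 (with Esf1), Cox6b2 (with Fam71e2) and Atp5j (with Gabpa, the DNA-binding subunit of GABP).

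No gene-end peak was found for 9 genes. Cox7b, Ndufa1 and Ndufb11 lie on chromosome X, for which the deposited table holds no peak, so nothing can be said of them. Cox7a2 had a peak of mean signal 274 inside the gene but more than 1 kb from either end, and Cox7b2, a testis isoform, one of 30.0. The nearest peak lay 2469 bp from Ndufb4c, 2670 bp from Cox8b, 18444 bp from Ndufb4b and 20000 bp from Cox8c.

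The question of the design is how accessibility differs between quiescent and proliferating cells. At the oxidative phosphorylation genes it differed little. One peak, at Cox6b2, was lower in the quiescent cells, none was higher, and the other 113 of the 114 tested peaks did not pass the threshold of an adjusted p of 0.05 (limma, Benjamini-Hochberg over all 87411 tested peaks). That is 0.877% of the peaks, against 2.81% of the 15710 other gene-end peaks (1.33% higher and 1.48% lower) and 6.72% of all tested peaks. The other 4 peaks were below the filter on low signal, among them additional peaks of Ndufa9, Ndufa13 and Atp5h, and 87 genes were tested.

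The changes were also small in size. The log2 fold change, quiescent against proliferating on the log2(value + 1) scale, ran from -1.10 to 1.33 with an interquartile range of -0.30 to 0.05, and its standard error had a median of 0.21. A change of more than 0.5 in either direction was estimated for 13 peaks (11.4%), against 18.1% of other gene-end peaks. For the strongest peak of each gene, the 95% interval lay within 1 log2 unit of 0 for 79 of 87 (90.8%). The 8 strongest peaks whose interval reached past 1 log2 unit were those of Ndufa4l2, Ndufs4, Ndufaf5, Ndufaf6, Cox6a2, Cox6b2, Cox6c and Cox7a1. The strongest peak is not always at the promoter. Of the 87, 66 overlapped a RefSeq promoter window of their gene, and some genes have no window. At Ndufb7 the strongest peak lay 734 bp from the gene, near Tecr, at 0.05, and the peak at its start at -0.44. Of all 70 tested peaks on such windows, the interval lay within 1 log2 unit of 0 for 94.3%. Over all 114 tested peaks, the interval lay within 1 log2 unit of 0 for 91 (79.8%), against 70% of other gene-end peaks. This share depended on signal. From the weakest to the strongest quartile of mean signal it was 18.8%, 81.8%, 91.2% and 96.8%. At other gene-end peaks it was 29%, 68.1%, 87.9% and 95.3%.

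**Figure D2:**
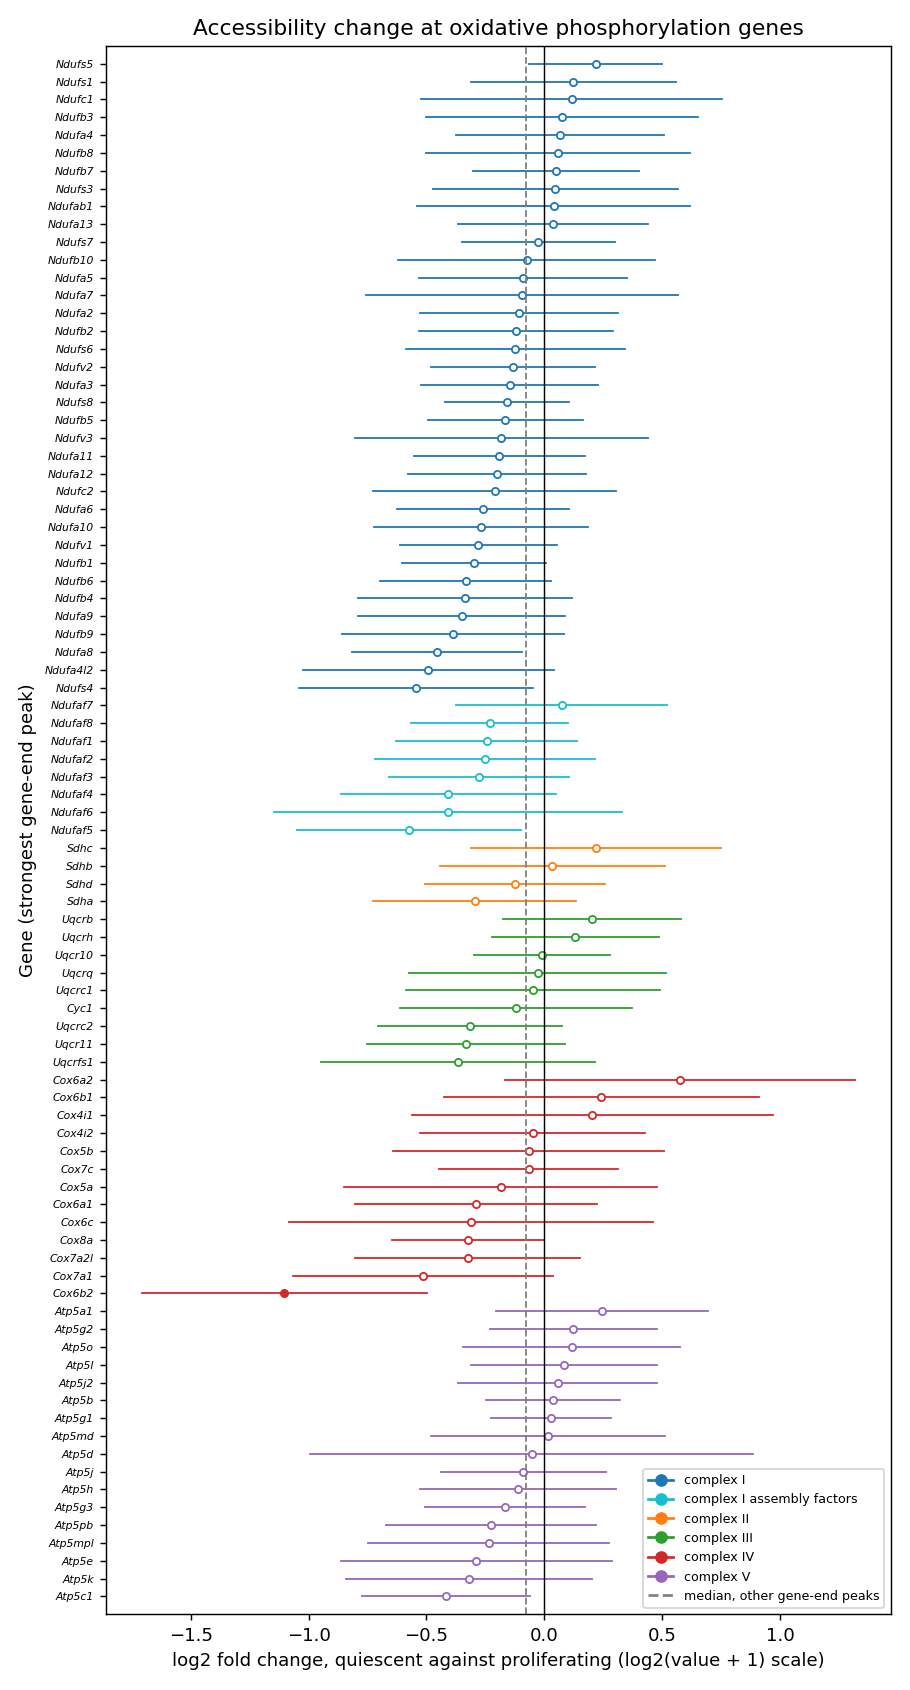
Log2 fold change (horizontal axis, quiescent against proliferating, log2(value + 1) scale) at the strongest gene-end peak of each of the 87 tested genes (vertical axis), coloured by complex, with 95% limma intervals from 3 against 3 samples. The filled point, Cox6b2 at -1.10, is the peak past the threshold, and the dashed line is the median of other gene-end peaks, -0.079. The strongest peak can lie at either end of a gene and can be near another gene, so it is not always the promoter.

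More of the estimates lay below 0 than above. The median log2 fold change was -0.123, against -0.079 at other gene-end peaks and -0.009 over all tested peaks, and 77 of 114 (67.5%) were below 0, against 60.3% and 50.7%. The groups did not overlap at 18 of the 114 peaks (15.8%, against 24.7% of other gene-end peaks). In 17 of the 18 the quiescent samples were the lower ones (14.9% of the peaks, against 16.6% of other gene-end peaks), and in 1, at Ndufs5, the higher (0.877% against 8.16%). An unadjusted p under 0.05 was reached by 7 peaks (6.14%), against 13.9% of other gene-end peaks.

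**Figure D3:**
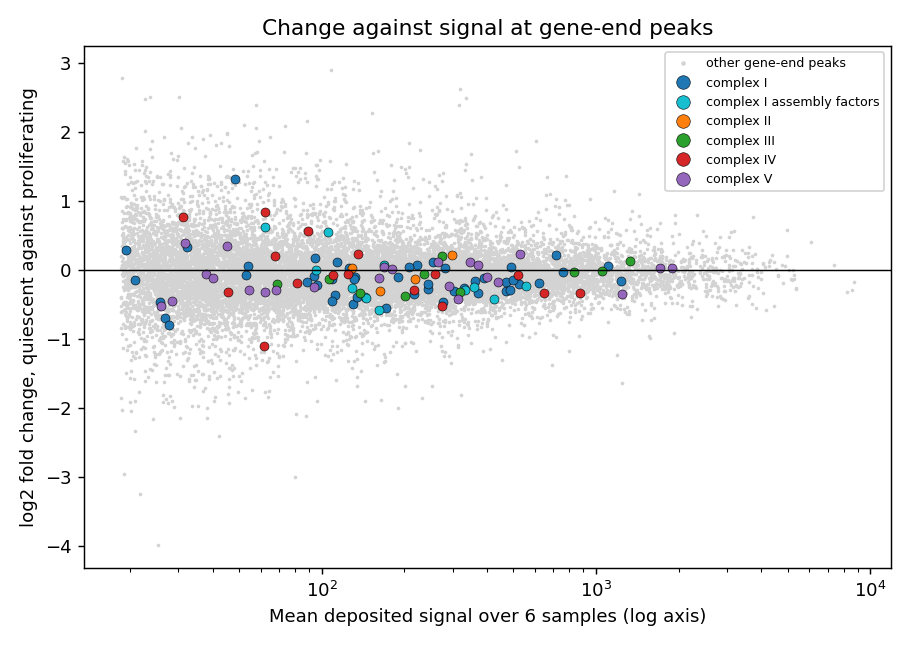
Log2 fold change (vertical axis) against mean deposited signal over the 6 samples (horizontal log axis) at the tested gene-end peaks, with the 114 oxidative phosphorylation peaks coloured by complex over the other 15710 in grey. The coloured points lie between -1.10 and 1.33, and the strongest of them, at Atp5b, has a log2 fold change of 0.04 and a signal of 1886.

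When the tested gene-end peaks were divided into quartiles of mean signal, the oxidative phosphorylation peaks had medians of -0.092, -0.118, -0.243 and -0.134 from the weakest to the strongest quartile, and the other gene-end peaks -0.036, -0.087, -0.101 and -0.074. By complex, the median was -0.141 for complex I (34 of 48 below 0), -0.248 for the assembly factors (8 of 12), -0.045 for complex II (2 of 4), -0.084 for complex III (8 of 10), -0.067 for complex IV (11 of 16) and -0.099 for complex V (14 of 24). Each group held peaks on both sides of 0, and no difference between complexes was tested.

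The samples of a group differed from each other as much as the groups did. The median deviation of the 114 peaks from their mean over the 6 samples, in log2 units, was -0.141, -0.018 and -0.030 in quiescent samples 1 to 3 and -0.141, 0.101 and 0.216 in proliferating samples 1 to 3. Proliferating sample 1 was thus as low as quiescent sample 1, and the groups overlapped. Other gene-end peaks had the same order at smaller values, -0.062, -0.015 and -0.028 against -0.062, 0.058 and 0.140, while over all tested peaks the values lay between -0.006 and 0.035. Proliferating samples 2 and 3 had medians above 0 in every complex, and proliferating sample 1 was lowest in complex IV, at -0.333.

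**Figure D4:**
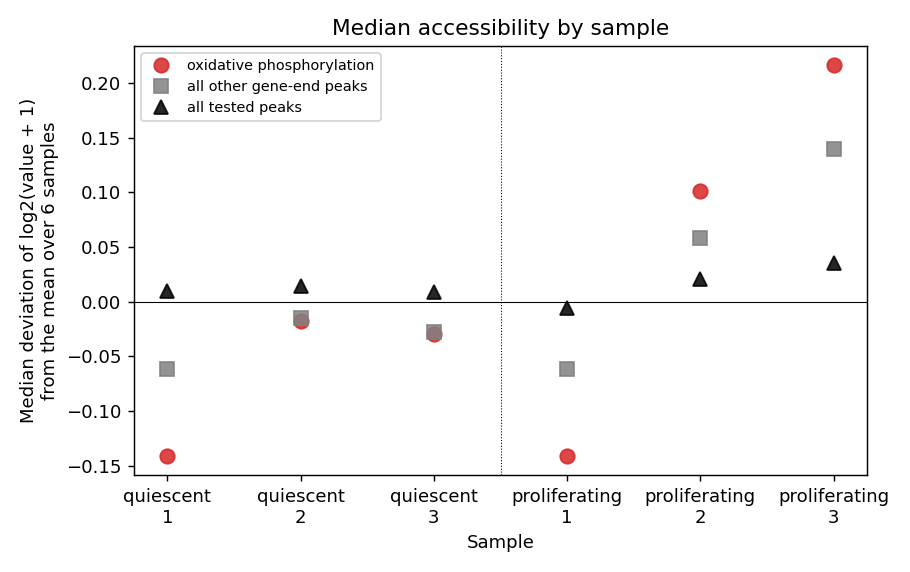
Median deviation of log2(value + 1) from the mean over the 6 samples (vertical axis) in each sample (horizontal axis), for the 114 oxidative phosphorylation peaks (circles), the 15710 other gene-end peaks (squares) and all 87411 tested peaks (triangles). Both samples numbered 1 sit at -0.141 for oxidative phosphorylation, and proliferating sample 3 at 0.216.

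Set side by side by number, the median difference, quiescent minus proliferating, was 0.042 for the samples numbered 1, -0.118 for those numbered 2 and -0.280 for those numbered 3, with 53, 74 and 92 of the 114 peaks below 0. At other gene-end peaks it was -0.003, -0.069 and -0.170. The samples differed in depth at the same time. Reads in peaks, estimated from the deposited values, were about 28155426, 14018849 and 18582862 in quiescent samples 1 to 3 and 8055679, 31695966 and 49148524 in proliferating samples 1 to 3, and the median oxidative phosphorylation peak held 175, 107 and 130 against 56, 275 and 481 reads. The part of depth in the sample medians was not tested.

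The single called change also rests on these samples. The Cox6b2 peak was not called without quiescent sample 1, 2 or 3, with adjusted p-values of 0.0728, 0.0756 and 0.138 (limma). Nor was it called without proliferating sample 2 or 3, at 0.146 and 0.164 (limma). It stayed called without proliferating sample 1, at 0.0394 (limma). Without both samples numbered 1, a setting chosen after seeing the data, its adjusted p was 0.0194 (limma). Over all other gene-end peaks, leaving out 1 sample moved the number called from 442 to between 0, without quiescent sample 3, and 660, without proliferating sample 1. Without proliferating sample 1, the shallowest, 4 oxidative phosphorylation peaks were called (3.51%, against 4.2% of other gene-end peaks), and without both samples numbered 1 it was 11, 3 higher and 8 lower (9.65%, against 11.0%). Both shares were near those of other gene-end peaks.

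The labels do not say that samples of equal number belong together, and for samples 2 and 3 the values did not show it. The values with a block below depend on that pairing. With the sample number as a block, 3 peaks were called, 1 higher and 2 lower (2.63%, against 8.82% of other gene-end peaks and 18.3% of all). These were Cox6b2, the peak of Atp5b at chr10:128090554-128092985 and a weak peak of Ndufab1 at chr7:122087147-122087864. The Atp5b peak lies 166 bp beyond the end of the gene and within 1 kb of Baz2a. It was 970, 1023 and 1299 in the quiescent and 1159, 1473 and 1547 in the proliferating samples. The groups overlapped, the log2 fold change was -0.34 ± 0.16 (SE), and the adjusted p was 0.224 without and 0.0446 with the block (limma). Ndufab1 encodes the mitochondrial acyl carrier protein, and this peak was 87.9, 65.0 and 48.3 against 49.9, 12.8 and 25.2. It had the highest fold change of all members, 1.33 ± 0.47 (SE), with overlapping groups and an adjusted p of 0.126 without and 0.0236 with the block (limma). The strongest peak of Ndufab1, at its start, was at 0.04. Both peaks were named after their values were seen.

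Cox6b2 encodes the testis isoform of complex IV subunit 6b. Its peak, 693 bp at chr7:4752600-4753293, covers the RefSeq start. The signal was 32.0, 49.7 and 35.5 in the quiescent samples (39.1 ± 9.41, SD, n = 3) and 75.9, 82.9 and 92.6 in the proliferating samples (83.8 ± 8.36, SD, n = 3). The groups did not overlap. It fell by 1.10 on the log2 scale in the quiescent cells (SE 0.27, 95% interval -1.71 to -0.50), with an adjusted p of 0.0434 (limma), and of 0.0155 with the replicate block. The depth behind these values was low, at 35, 31 and 29 reads in the quiescent and 29, 142 and 254 reads in the proliferating samples. Fam71e2 also lies within 1 kb of this peak.

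Cox6b1, the isoform of the same subunit that most tissues express, showed no such change. Its peak at chr7:30625641-30626588 was 136, 178 and 120.1 in the quiescent and 77.6, 149 and 151 in the proliferating samples. Proliferating sample 1 stood lowest, the groups overlapped, and the log2 fold change was 0.24 ± 0.30 (SE, 95% interval -0.43 to 0.91, limma adjusted p = 0.668). The sign of the Cox6b1 estimate depended on the setting. It was -0.07 without proliferating sample 1, -0.04 without both samples numbered 1 and -0.17 with estimated reads scaled to totals, and above 0 in the other settings. The intervals of Cox6b2 and Cox6b1 in the main fit did not meet. Cox6b2 was set beside Cox6b1 because it passed the threshold, and the difference between these peaks was not tested.

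**Figure D5:**
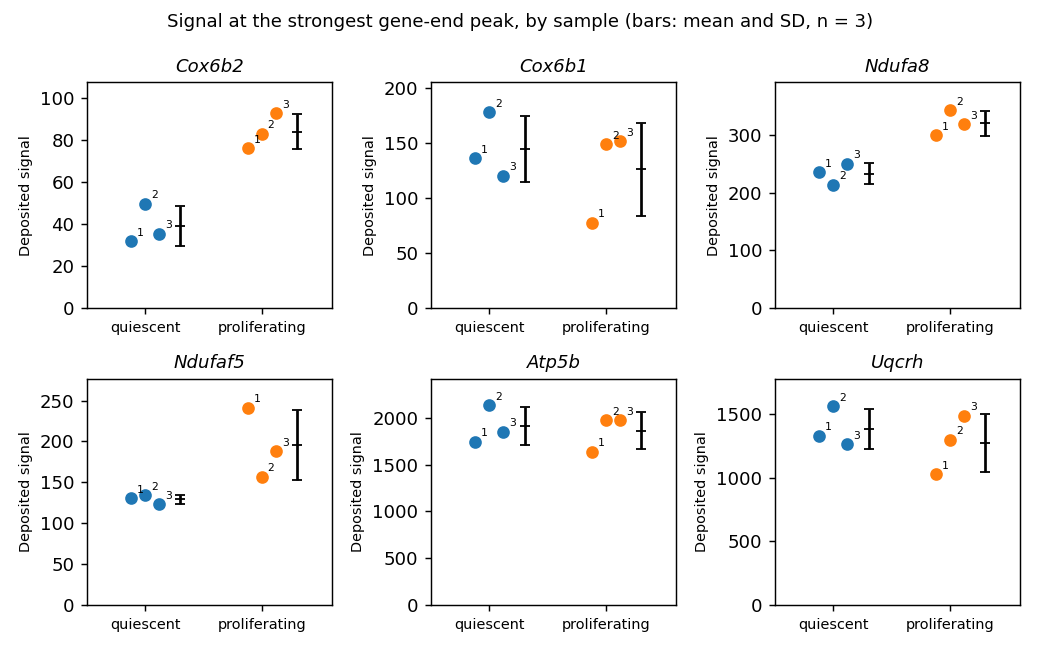
Deposited signal (vertical axes, from 0) at the strongest gene-end peak of 6 genes in each of the 3 quiescent and 3 proliferating samples, numbered by replicate, with bars for the mean and SD. The groups are apart at Cox6b2 (32.0 to 49.7 against 75.9 to 92.6), Ndufa8 and Ndufaf5, of which only Cox6b2 passes the threshold, and overlap at Cox6b1, Atp5b and Uqcrh.

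In complex I the strongest promoter was that of Ndufs8, an iron-sulfur subunit. Its peak was 1113, 1149 and 1237 in the quiescent and 1233, 1247 and 1430 in the proliferating samples, which overlap narrowly, with a log2 fold change of -0.16 ± 0.12 (SE, adjusted p = 0.451, limma). Ndufa8, an accessory subunit, was 235, 214 and 249.6 against 299, 342 and 318. The groups did not overlap, and the change of -0.46 ± 0.16 (SE) had an adjusted p of 0.122 (limma). Ndufs4, an accessory subunit whose loss is a known cause of complex I deficiency, was 135, 115 and 168 against 172 to 241, again without overlap, at -0.54 ± 0.22 (SE, adjusted p = 0.171, limma). Ndufs5, a further accessory subunit, went the other way, at 775, 817 and 709.7 against 668, 657 and 650.5. It was the peak with the quiescent samples all higher, and its log2 fold change of 0.22 ± 0.13 (SE) had an adjusted p of 0.325 (limma). The core subunits Ndufs1 and Ndufv1 were at 0.12 and -0.28 with adjusted p-values of 0.746 and 0.286 (limma).

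Ndufa4l2 is a paralogue of Ndufa4 that is known to be induced by hypoxia. Its peak, 109, 86.7 and 127 in the quiescent and 120.4, 163 and 172 in the proliferating samples, had overlapping groups, and its log2 fold change of -0.49 had an adjusted p of 0.240 (limma). Among the weakest peaks of all were additional gene-end peaks of Ndufa9 (8.77) and Ndufa13 (14.6), which were under the filter and were not tested.

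The assembly factors build complex I without being part of it. The strongest peak among them was at Ndufaf8, at 513, 505 and 507 in the quiescent and 655, 510.4 and 637 in the proliferating samples. The quiescent samples lay within a narrow range and proliferating sample 2 fell inside it, with a log2 fold change of -0.23 ± 0.15 (SE, adjusted p = 0.373, limma). Ndufaf5, which hydroxylates an arginine of Ndufs7, was 130.2, 134 and 123 against 241, 157 and 188. The groups did not overlap, and the change of -0.57 ± 0.21 (SE) had an adjusted p of 0.136 (limma). Its promoter has an NRF1 match, GCGCATGCGC, just after the start at 17. Ndufaf7, a methyltransferase that acts on complex I during assembly, had 3 gene-end peaks. Of these the one of middle strength, at chr17:78936277-78936811, was 104, 126 and 143 against 61.4, 86.5 and 109.9 with a log2 fold change of 0.55 ± 0.27 (SE, adjusted p = 0.240, limma), while the strongest was at 0.07.

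Complex II is the succinate dehydrogenase of the citric acid cycle, with all 4 subunits encoded in the nucleus, and each gene had 1 gene-end peak. Sdha, the flavoprotein, was 144, 138 and 154 in the quiescent and 204, 152 and 184 in the proliferating samples, at -0.30 ± 0.19 (SE, adjusted p = 0.385, limma). Sdhb, the iron-sulfur subunit, was 142, 125 and 123 against 104, 130.5 and 149, at 0.03 ± 0.21 (SE). Neither peak separated the groups. The membrane anchors were Sdhc, at 294, 354 and 307 against 189, 326 and 329 (0.22 ± 0.23, SE), and Sdhd, at 207, 214 and 206 against 204, 229 and 252 (-0.12 ± 0.17, SE). Both overlapped between the groups, with adjusted p-values of 0.617 and 0.704 (limma), and at Sdhc the lowest value was again proliferating sample 1. The intervals of all 4 lay within 1 log2 unit of 0, against 70% of other gene-end peaks.

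In complex III, Uqcrh, the acidic hinge subunit beside cytochrome c1, had the strongest peak. It was 1328, 1560 and 1261 in the quiescent and 1029, 1299 and 1485 in the proliferating samples, with a log2 fold change of 0.13 ± 0.16 (SE, adjusted p = 0.657, limma). Cyc1, which encodes cytochrome c1, had the weakest of the genes' strongest peaks, at 85.2, 122 and 100.4 against 104, 107 and 120.0 and a change of -0.12 ± 0.22 (SE, adjusted p = 0.786, limma). The groups overlapped at both. The intervals of all 10 peaks of complex III lay within 1 log2 unit of 0, against 70% of other gene-end peaks.

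Complex IV holds most of the tissue-restricted isoforms. Its strongest peak was at Cox7a2l, a factor of respiratory supercomplexes, at 747, 789 and 756 in the quiescent and 658, 1135 and 1176 in the proliferating samples. Proliferating sample 1 lay below all quiescent samples and the other two lay above, so that the log2 fold change of -0.33 ± 0.21 (SE) had an adjusted p of 0.388 with all samples and of 0.0176 without proliferating sample 1, at -0.60 (limma). Cox7a1, a heart and muscle isoform, was 151, 293 and 245 against 288, 331 and 333. It had a change of -0.52 ± 0.24 (SE, adjusted p = 0.236, limma), with quiescent sample 1 far below the rest. Cox6a2, another muscle isoform, was 60.4, 126 and 141 against 61.1, 76.5 and 68.7, at 0.57 ± 0.33 (SE, adjusted p = 0.325, limma). Without both samples numbered 1 its log2 fold change was 0.87 with an adjusted p of 0.0147 (limma). This peak lies outside Cox6a2, 179 bp from its end, and within 1 kb of Itgad. Cox4i2, the lung isoform of subunit 4, was 256, 239 and 257 against 191, 293 and 310.5, at -0.05, in a peak 984 bp outside the gene. Of the 8 genes listed as tissue-restricted isoforms, which include Ndufa4l2 of the complex I group, 5 had a gene-end peak, with 0 called higher and 1 lower (Cox6b2), a count too small to set beside the 2.81% of other gene-end peaks.

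Complex V had the 2 strongest peaks of all. Atp5b was 1744, 2134 and 1853 in the quiescent (1910.3 ± 201, SD, n = 3) and 1637, 1976 and 1974 in the proliferating samples (1862 ± 195, SD, n = 3), at chr10:128082451-128083961. Atp5g1 was 1544, 1834 and 1794 against 1668, 1608 and 1787. The groups overlapped at both, and the log2 fold changes of 0.04 ± 0.13 and 0.03 ± 0.11 (SE) had 95% intervals of -0.25 to 0.32 and -0.23 to 0.28. Atp5a1, the alpha subunit, was 484, 610.4 and 609.6 against 360.0, 557 and 540.2, at 0.24 ± 0.20 (SE, adjusted p = 0.497, limma). Atp5c1, the gamma subunit of the rotor, was 277, 256 and 271 against 380.0, 316 and 380.1, without overlap. Its log2 fold change of -0.42 ± 0.16 (SE) had an adjusted p of 0.148 (limma). The main catalytic and rotor subunits of ATP synthase thus had changes on both sides of 0, none of which passed the test.

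Lists of related genes gave counts of the same order at their gene ends, read against the 2.81% of other gene-end peaks. Of 114 tested peaks of mitochondrial ribosomal proteins, 1 was higher and 0 lower, with a median of -0.122, and the higher one was at Mrpl11 (113 ± 26.7 against 40.9 ± 6.35, SD, n = 3). Of 62 peaks of further assembly factors of the respiratory chain and ATP synthase, 0 were higher and 1 was lower, with a median of -0.150. It lay at Surf1, an assembly factor of complex IV, with 84.0 ± 2.14 against 197 ± 16.8 (SD, n = 3) and an adjusted p of 0.0119 (limma). Of 33 peaks of the citric acid cycle and pyruvate dehydrogenase, none was called (limma), with a median of -0.175 and 3 peaks at an unadjusted p under 0.05. Of 32 peaks of regulators of mitochondrial biogenesis, none was called either (limma), with a median of -0.095 and 2 at an unadjusted p under 0.05. With the replicate block, 1 higher and 4 lower peaks were called among the ribosomal proteins, 0 and 5 among the assembly factors, 0 and 1 in the citric acid cycle list and 2 and 0 among the regulators, against 8.82% of other gene-end peaks. The ribosomal list and the regulators each share 2 peaks with the oxidative phosphorylation genes.

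The labelled cell type and state were set beside marker genes. All 12 B cell markers had gene-end peaks, with a summed signal of 23276 to 26610 in the quiescent and 25240 to 29765 in the proliferating samples. Of the 12 myeloid markers, 5 had a gene-end peak (Csf1r, Itgam, Lyz2, Fcgr3 and Ltf), 1407 to 1563 against 871 to 1062 in sum. All 5 peaks had a log2 fold change above 0, from 0.21 to 1.06. At 4 of the 5 the quiescent samples were all higher, against 8.16% of other gene-end peaks. No gene-end peak was found at Mpo, Elane, Csf3r, S100a8, S100a9, Cebpe or Ngp. Of the T and NK markers, 8 of 12 had a gene-end peak (3274 to 3653 against 2940 to 3158, none at Cd3e, Cd3g, Zap70 or Ncr1). Of the erythroid and megakaryocyte markers it was 4 of 12 (2285 to 2597 against 2106 to 2450, none at Klf1, Epor or Alas2). Fold changes were below 0 at 2 of 9 T and NK, 3 of 10 erythroid and megakaryocyte and 18 of 27 B cell peaks. Among the marker peaks 1 was called higher and 3 lower of 27 for B cells, 1 higher of 5 for myeloid cells, 1 higher of 9 for T and NK cells and 1 lower of 10 for erythroid cells and megakaryocytes, against 2.81% of other gene-end peaks. With the replicate block it was 1 higher and 5 lower for B cells, 3 higher for myeloid cells, 2 higher for T and NK cells and 1 higher and 1 lower for erythroid cells and megakaryocytes, against 8.82%. Of 30 peaks of cell cycle genes, 0 were higher and 2 lower in the quiescent samples, both at Rrm2, a ribonucleotide reductase subunit needed for DNA synthesis, and 4 were lower with the block. Of these 30 peaks 26 (86.7%) had a log2 fold change below 0, against 60.3% of other gene-end peaks. In samples of many cells, a change in the share of cells of a type cannot be told apart from a change within cells, and the part of the marker differences in the results above was not tested.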

How the data were processed

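ATAC-seq signal was measured in 6 samples, 3 quiescent (H2B-GFP high) and 3 proliferating (H2B-GFP low), grouped by the labels. Bowtie2, SAMtools and MACS2 were used with the build mm10 (GRCm38), per the submitters' processing notes. The sources used here do not give versions, settings or how the transposase offset was handled. For each peak and sample the authors deposited a signal, a read count scaled by a factor that varies with signal strength. This description comes from the values: they step in multiples that differ between samples and strengths, and totals lie between 20904407 and 21518630 in all samples. Peak positions are as the file gives them.

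From the steps, reads were estimated, with 98.0% to 100.0% of values between 1 and 1000 reads within 0.1 of a whole number. Reads recovered in simulated data were exact for 96.0% to 99.3%. They served for depth and for 2 alternatives. PCR copies were not told apart.

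Log2(signal + 1) was fitted with limma 3.58.1 (R 4.3.3, eBayes with trend, group only) over the 87411 peaks above the lowest 10% by mean signal (18.5), with Benjamini-Hochberg adjustment over all of them and a threshold of 0.05. In simulated data of the same 87411 peaks, 180 of 200 changes of log2 size 2 were recovered, with 11 false calls. The simulated noise had the same SD at every peak. Smaller changes, such as those at the oxidative phosphorylation peaks, were not simulated, so the recovery does not apply to them. Gene positions, symbols and promoter sequences are from RefSeq (GRCm38.p6). The members and lists were chosen with earlier results of these data known, so lists are described by counts and medians, without set tests.

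Genes were named by a rule: peaks past the threshold, the 5 largest changes in each direction among peaks with a mean above the median of tested peaks, the strongest peak of each complex, the 3 strongest and 3 weakest, all Sdh genes and Cyc1, the tissue-restricted isoforms, and genes without a peak. Ndufs5, Ndufs1, Ndufv1, Ndufab1, Atp5c1, Cox4i1, the per kb order, the called peaks of other lists and peaks called in alternatives were named after their values were seen. The values of 1 gene are not reported here.

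Same-numbered samples deviated together over all peaks (correlations 0.43, 0.285 and 0.21 for numbers 1, 2 and 3). Across numbers, quiescent sample 2 and proliferating sample 3 had 0.22 and quiescent sample 3 and proliferating sample 2 had 0.146, so samples 2 and 3 correlated across numbers about as much as within them, and the other 4 cross-number correlations lay between -0.361 and -0.212. Every same-number correlation was over 0.1, so a fit with the number as a block was run. The correlations do not show that samples 2 and 3 pair by number, so the values of this fit hold only if the pairing is right. Alternatives changed the pseudocount, filter, scaling, trend, distance to the gene end and the samples included.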

Additional observations from a re-analysis of the deposited data

How the results depend on the processing

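The count of 1 called oxidative phosphorylation peak did not change with a pseudocount of 0.5 or 10, without a filter, with a filter on the lowest 25%, after median or quantile normalization, without the trend, with the strongest peak per gene or with peaks overlapping the gene end. It was 3 with the replicate block, which beyond the calls given above changed no call of a peak named by rule, and 0 when each sample was centred on the median of gene-end peaks, where Cox6b2 had an adjusted p of 0.0506 (limma) and 4 peaks an unadjusted p under 0.05. It was 0 of 59 among peaks not shared with another gene, a set without Cox6b2 in which 3 had an unadjusted p under 0.05, and 6 of 181 within 3 kb. With limma-voom on the estimated reads it was 4, all lower, when scaled to totals (Cox6b2, Ndufa8, Ndufaf5 and a weak peak of Ndufb7; 3.51%, against 8.99% of other gene-end peaks), and 4, 3 higher and 1 lower, with median-of-ratios scaling (Atp5g1, Ndufs5 and Ndufab1, and Cox6b2; 3.51% against 6.77%). Scaling to totals moved the median of all peaks to -0.253 and that of the oxidative phosphorylation peaks to -0.344, against -0.289 at other gene-end peaks. There 86.8% of the oxidative phosphorylation peaks were below 0, against 79.5% of other gene-end peaks. An unadjusted p under 0.05 (limma-voom) was reached by 33 of the 114, and by 29594 of all 87411 tested peaks. The size of the shift thus depends on the scaling. Leaving out 1 sample gave 0 to 4 calls (limma), with 3 to 19 peaks at an unadjusted p under 0.05, and medians of -0.206 to -0.063. Without both samples numbered 1, chosen after seeing the data, it was 11, with a median of -0.178. The median stayed below 0 in every setting run, and its difference from that of other gene-end peaks lay between -0.069 and -0.031 in the settings that kept the 1 kb rule. The cause of the differing counts was not tested. Among the other single peaks named by rule, estimates changed sign in 23 of their settings, at peaks that were not called. Depth was lowest in proliferating sample 1, where the median oxidative phosphorylation peak held 56 reads.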

Other observations

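Within 3 kb of a gene end, gene-end peaks included, the share of peaks called was near that of other peaks. The share among peaks beyond 1 kb alone was not computed. Of 181 tested oxidative phosphorylation peaks within 3 kb, 6 were called (3.31%, against 3.79% of the other peaks within 3 kb of a gene end), and 5 of them were not gene-end peaks. The peak 1444 bp from Ndufa6, at chr15:82348044-82348695, was 172 ± 7.41 in the quiescent and 67.5 ± 8.75 in the proliferating samples (SD, n = 3), with a log2 fold change of 1.34 (limma adjusted p = 0.0115).

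Of the 5, 3 were lower in the quiescent samples. They lay 2675 bp from Ndufa4l2 (314 ± 19.3 against 489 ± 35.8, SD, n = 3), 1777 bp from Ndufa5 (11.2 ± 3.47 against 56.0 ± 6.14) and 1415 bp from Uqcrfs1, the Rieske iron-sulfur subunit of complex III (4.23 ± 3.92 against 35.8 ± 9.84). The adjusted p-values of these peaks were 0.0370, 0.0132 and 0.0463 (limma). At the Ndufa5 and Uqcrfs1 peaks the quiescent mean lay below the filter of 18.5. They passed it on the mean over all samples, only through the higher proliferating values. Their calls are thus not independent of the filter, and their fold changes rest on values near the floor. The gene-end peaks of Ndufa6, Ndufa5, Ndufa4l2 and Uqcrfs1 were not called. These peaks were named after their values were seen, and which gene each belongs to was not tested.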
